A study of Mus musculus with 9 samples.

Results

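The transcripts of 4 genes of ketone body use and monocarboxylate transport, Oxct1, Bdh1, Acat1 and Slc16a1, were compared across 9 mouse heart libraries. They were taken by name from the 13539 genes of the deposited table, and all 4 were found and passed the filter on low values. Total RNA came from hearts of male mice aged 12 weeks on the C57BL/6JOlaHsd background. A first group of 3 libraries came from wild-type mice given isoproterenol, a β-adrenergic agonist, at 10 mg/kg/day from implanted minipumps for 7 days. Another 3 came from mice lacking OMA1, a stress protease of the inner mitochondrial membrane, that were left untreated, and 3 from OMA1 knockout mice given isoproterenol on the same schedule. How the knockout was made, and whether untreated mice carried a pump, is not given in the sources used here, so drug and pump implantation cannot be told apart. No untreated wild-type library was analysed here. Both knockout groups lack OMA1, so the treatment comparison applies to hearts without it, and whether genotype altered the response to isoproterenol could not be tested.

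Ketone bodies are made in the liver from fatty acid carbon and burned in the heart, which takes them up together with lactate. SLC16A1, also called MCT1, is a proton-coupled carrier that moves lactate, pyruvate and ketone bodies across the plasma membrane. In the mitochondrial matrix, BDH1 oxidises 3-hydroxybutyrate to acetoacetate. OXCT1 then transfers coenzyme A from succinyl-CoA to acetoacetate, which is the committed step of ketone use and is missing from the liver. ACAT1, the mitochondrial acetoacetyl-CoA thiolase, splits acetoacetyl-CoA into acetyl-CoA for the citric acid cycle, and it also acts in isoleucine breakdown.

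The 4 genes lie apart in the genome (GRCm38). Oxct1 (ENSMUSG00000022186) spans chromosome 15, 4026383 to 4155344, on the plus strand, with 17 exons in its longest coding transcript. Bdh1 (ENSMUSG00000046598) spans chromosome 16, 31422280 to 31458901, plus strand, with 7 exons. Acat1 (ENSMUSG00000032047) spans chromosome 9, 53580522 to 53610382, minus strand, with 12 exons. Slc16a1 (ENSMUSG00000032902) spans chromosome 3, 104638668 to 104658462, plus strand, with 5 exons. The deposited values are sums per gene, so transcripts of a gene and the exons behind a change were not resolved.

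The sequences before the start sites are shown because Oxct1 and Slc16a1 had like profiles over the libraries, whereas Bdh1 moved the opposite way between the knockout groups, though not between the treated groups. Start sites came from RefSeq (GRCm38.p6), in which 3 of the 4 genes, all but Acat1, were matched by symbol. Each window begins 250 bases before the start and ends before the first annotated exon, and all are on the plus strand, 5′ to 3′. Bdh1 has 2 RefSeq starts 6456 bases apart. The windows are chr15:4026178-4026382 for Oxct1, chr16:31422047-31422279 and chr16:31428503-31428747 for the first and second Bdh1 start, and chr3:104638414-104638663 for Slc16a1. Capitals mark motif matches.
Oxct1: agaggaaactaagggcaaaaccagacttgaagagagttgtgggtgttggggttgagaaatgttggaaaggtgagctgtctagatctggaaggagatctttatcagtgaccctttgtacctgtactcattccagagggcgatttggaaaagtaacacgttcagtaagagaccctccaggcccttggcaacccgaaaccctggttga
Bdh1, first start: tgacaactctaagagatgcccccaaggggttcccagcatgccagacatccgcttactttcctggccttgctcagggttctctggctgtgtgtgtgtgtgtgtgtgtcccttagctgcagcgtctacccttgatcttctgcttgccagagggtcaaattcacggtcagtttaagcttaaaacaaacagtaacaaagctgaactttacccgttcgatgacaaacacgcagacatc
Bdh1, second start: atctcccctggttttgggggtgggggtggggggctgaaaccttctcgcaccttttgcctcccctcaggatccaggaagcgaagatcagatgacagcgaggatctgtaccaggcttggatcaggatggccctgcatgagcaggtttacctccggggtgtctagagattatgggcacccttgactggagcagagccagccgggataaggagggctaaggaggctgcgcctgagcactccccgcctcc
Slc16a1: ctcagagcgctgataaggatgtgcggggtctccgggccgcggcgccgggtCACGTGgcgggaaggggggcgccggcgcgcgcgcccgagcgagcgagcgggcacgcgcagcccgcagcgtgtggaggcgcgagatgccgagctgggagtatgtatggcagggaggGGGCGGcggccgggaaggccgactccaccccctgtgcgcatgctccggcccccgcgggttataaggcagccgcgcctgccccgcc

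The windows differed most in base composition. The Slc16a1 window had a GC content of 76.4%, against 47.8% for Oxct1, 49.8% for the first Bdh1 start, 60.4% for the second and a median of 52.4% over 32851 RefSeq promoters. On both strands 4 motifs were searched: AGGTCA, the core that nuclear receptors bind, CACGTG, the E-box, TGACG, the core of the cAMP response element, and GGGCGG, the GC box. Of all promoters, 14% held AGGTCA, 6.02% CACGTG, 17.8% TGACG and 32.7% GGGCGG. The Slc16a1 window held CACGTG, beginning at position -200 from the start, and GGGCGG at -85. Neither Oxct1 nor either Bdh1 start had any of these letters in its window. A match is a description of the sequence only.

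Values are the deposited normalized counts, which sum to 9.46e+05 to 1.02e+06 per library. Reads recovered per library ranged from 6.93e+06 to 1.22e+07, and the 4 genes were read deeply: Oxct1 by 6880 to 12763 reads, Acat1 by 2704 to 4328, Slc16a1 by 1338 to 2335 and Bdh1 by 364 to 2199. The knockout was visible in Oma1, at 17.7 to 22 in wild-type libraries and 5.73 to 9.10 in the 6 knockout libraries. The mitochondrial genome's share of the signal was 36.7% to 37.3% for the treated wild type, 33.9% to 34.6% for the untreated knockout and 38.2% to 42.5% for the treated knockout, with replicate 2 of the last group the highest. The 7 markers of cardiomyocytes, the defining cells of the labelled tissue, were all in the table. They summed to 36110.4 to 42347 in treated wild-type, 44784 to 48116 in untreated knockout and 40054 to 42659 in treated knockout libraries. Every untreated library thus lay above every treated one, and the part of this in the results was not tested.

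The untreated libraries differed from the treated ones in atrial transcripts. Myl7, the atrial myosin light chain, stood at 279, 131 and 189 in untreated knockout hearts and at 0.417 or less in all 6 treated libraries. Sln, the atrial sarcolipin, stood at 134, 53.7 and 88.1 and at 0.0811 or less. Summed over the 4 atrial markers, the values were 1111 to 2484 in the untreated knockout, 53.5 to 844 in the treated wild type and 87.8 to 119 in the treated knockout, where the 844 came from replicate 3 of the treated wild type and its Nppa of 842. Adipocyte markers, with 3 of 4 listed, summed to 13.4 to 59.3 in untreated libraries and at most 0.518 in treated ones. In every comparison with untreated hearts, treatment and the share of atrial tissue therefore cannot be told apart. Between the treated groups, Myl7 and Sln were at or near 0 throughout.

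Cell type markers also moved between the groups. Of 7 endothelial markers, 6 were higher in treated knockout than in treated wild-type hearts, beside 12.0% of all tested genes. The sum of the 7 was 1781 to 2169.8, 1385 to 1526 and 975 to 1075 in treated knockout, treated wild-type and untreated knockout hearts. The part of these markers in the results was not tested. In bulk tissue, fewer cells of a type and less RNA per cell cannot be told apart.

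Per kilobase of longest annotated transcript, Oxct1 was the most abundant of the 4 genes in every group. Its level was 319.5 ± 31.1 normalized counts per kilobase in the treated wild type, 346 ± 3.25 in the untreated knockout and 232 ± 25.6 in the treated knockout (SD, n = 3, as for all means here). Acat1 came second, at 106 ± 10.2, 151 ± 4.87 and 95.5 ± 11.1 per kilobase. Bdh1 stood at 63.3 ± 9.24, 17.1 ± 3.44 and 52.9 ± 0.597 per kilobase. Slc16a1 stood at 47.3 ± 4.38, 47.7 ± 2.44 and 35.1 ± 3.23 per kilobase. The order of Bdh1 and Slc16a1 thus turned: Bdh1 was above Slc16a1 in all 6 treated libraries and below it in all 3 untreated ones. No neighbours in these orders overlapped within a group. The annotated transcripts of Bdh1 differ in length, and with the mean coding length in place of the longest, Bdh1 came to 112 per kilobase in treated wild-type and 93.8 in treated knockout hearts, which overlapped Acat1 in both groups.

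**Figure D1:**
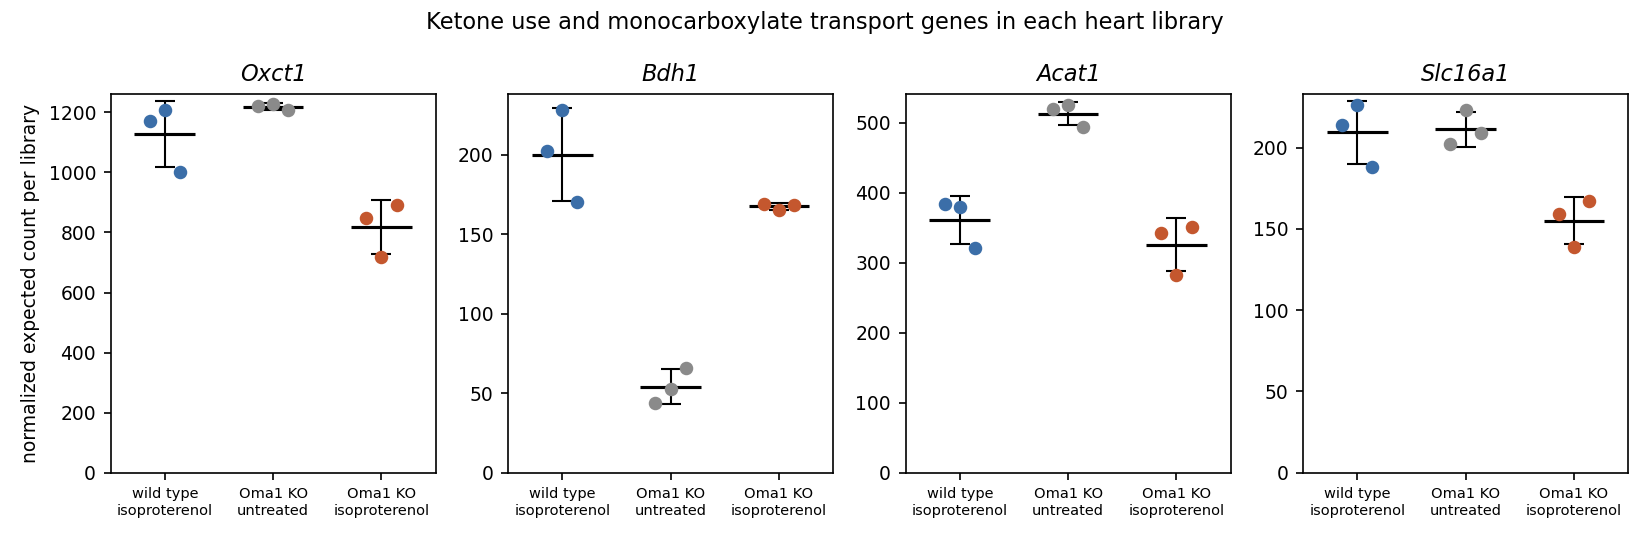
Normalized count of each gene in the 9 libraries (points; vertical axes start at 0), with the group mean (long bar) and SD (whiskers), for treated wild-type, untreated knockout and treated knockout hearts. The 3 treated knockout libraries lie below all others for Oxct1 and Slc16a1, and the 3 untreated libraries lie lowest for Bdh1 and highest for Acat1.

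Genotype under isoproterenol was addressed by setting treated knockout against treated wild-type libraries. Oxct1 and Slc16a1 were lower in the knockout, to 0.726 and 0.743 of the wild-type level, and Bdh1 and Acat1 did not pass the test. By limma with Benjamini-Hochberg adjustment over 8543 genes, 27.8% of all tested genes passed at an adjusted p under 0.05, 12.0% higher and 15.9% lower, so 2 of 4 members passing is to be read against a background in which lower calls were common. All-gene counts were 1023 higher and 1356 lower, and 1390 higher and 1065 lower when libraries were scaled to genes outside the mitochondrial genome.

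Oxct1, the coenzyme A transferase, had normalized counts of 1170.4, 1208 and 1002 in the treated wild-type libraries and 849, 717 and 889.9 in the treated knockout libraries. Every knockout library lay below every wild-type library. The means were 1127 ± 109.8 and 819 ± 90.3, a log2 difference of -0.46 ± 0.09 (SE; 95% interval -0.66 to -0.26; limma adjusted p = 0.0038). Groups that did not overlap, with the knockout lower, were found for 23.6% of tested genes.

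Slc16a1, the monocarboxylate carrier, had normalized counts of 214, 226 and 188 in treated wild-type and 159, 139 and 167 in treated knockout libraries. Here too the groups did not overlap. The means were 209 ± 19.4 and 155 ± 14.3, a log2 difference of -0.43 ± 0.09 (95% interval -0.62 to -0.24; limma adjusted p = 0.0043). Replicate 2 of the treated knockout, which had the largest share of mitochondrial transcripts, was the lowest library for Oxct1, Acat1 and Slc16a1. Over each library left out in turn, the difference ranged from -0.54 to -0.37 for Oxct1 and from -0.5 to -0.35 for Slc16a1, with both past the threshold each time.

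Bdh1, the 3-hydroxybutyrate dehydrogenase, had normalized counts of 202, 228 and 170.0 in treated wild-type libraries and 168.6, 165.2 and 168.3 in treated knockout libraries. The knockout values lay close together and just under the lowest wild-type library. The log2 difference of -0.25 ± 0.13 did not pass (95% interval -0.52 to 0.03; limma adjusted p = 0.16). Without replicate 3 of the treated wild type, which had the lowest value of all 4 genes in its group, it was -0.36 and passed (limma adjusted p = 0.04).

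Acat1, the thiolase, had normalized counts of 383, 379 and 321 in treated wild-type and 343, 282 and 351 in treated knockout libraries, which overlapped. Its log2 difference was -0.15 ± 0.09 (95% interval -0.35 to 0.05; limma adjusted p = 0.23). A fall of the size seen for Oxct1 lies outside this interval, whereas for Bdh1 it lies inside.

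The second comparison asks what changed with isoproterenol in hearts that lacked OMA1. All 4 genes passed: Bdh1 rose to 3.09 times the untreated level, while Oxct1, Acat1 and Slc16a1 fell to 0.669, 0.633 and 0.735 of it. This was the comparison with the most calls, 51.4% of all tested genes, with 23.9% higher and 27.4% lower. All-gene counts were 2043 higher and 2345 lower, and 2834 and 1669 when scaled to genes outside the mitochondrial genome, which moved the median of all genes by 0.10 on the log2 scale. Relative to the untreated group, on that scaling, the members differed by 1.74 for Bdh1 and by -0.47, -0.55 and -0.34 for Oxct1, Acat1 and Slc16a1, all past the threshold.

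Bdh1 had normalized counts of 44.0, 52.9 and 65.6 in the untreated knockout libraries, against 168.6, 165.2 and 168.3 after treatment. The lowest treated library was above the highest untreated one by a wide gap, and 29.2% of tested genes had groups that did not overlap in that direction. The means were 54.2 ± 10.9 and 167 ± 1.89, a log2 difference of 1.63 ± 0.13 (95% interval 1.36 to 1.90; limma adjusted p = 1.1e-06). Of the 8543 tested genes, 36 had a larger positive difference, and 2.06% were called at least 2-fold higher. The atrial transcripts listed above moved the other way in the same libraries, and their part was not tested.

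Acat1 had normalized counts of 519, 525 and 494 in untreated libraries, all above the treated knockout range of 282 to 351. The means were 513 ± 16.6 and 325 ± 37.8, a log2 difference of -0.66 ± 0.09 (95% interval -0.86 to -0.46; limma adjusted p = 7.5e-05). Oxct1 had normalized counts of 1222, 1228 and 1206 in untreated libraries, the tightest group in these data for this gene, against 717 to 889.9 with treatment. Its log2 difference was -0.58 ± 0.09 (95% interval -0.78 to -0.38; limma adjusted p = 0.00019). Slc16a1 had normalized counts of 202, 223 and 209 against 139 to 167, a log2 difference of -0.44 ± 0.09 (95% interval -0.63 to -0.26; limma adjusted p = 0.00092). In each of the 3 falling genes the groups did not overlap, as was so for 33.4% of tested genes in that direction.

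**Figure D2:**
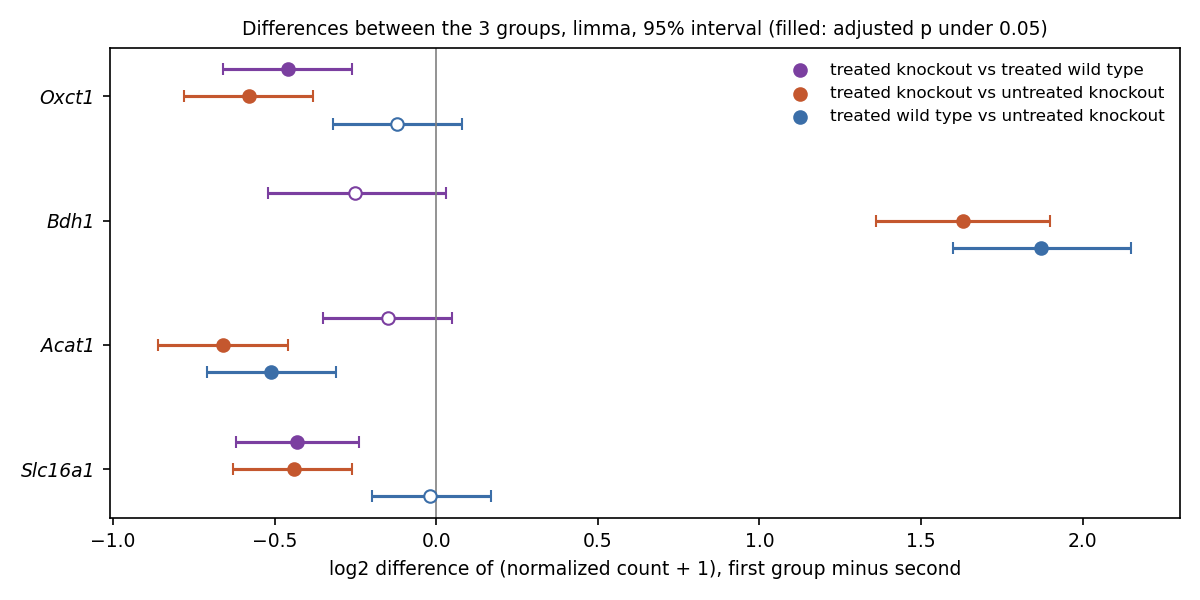
Log2 difference of (normalized count + 1) with its 95% interval for each gene (rows) in 3 comparisons (colours); filled points passed limma's adjusted threshold of 0.05. Bdh1 lies at 1.63 and 1.87 against untreated knockout hearts, while every other filled point lies between -0.66 and -0.43.

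Treated wild-type and untreated knockout hearts differ in both genotype and treatment, so this comparison places the genes without assigning a difference to either. Bdh1 was 3.67 times as high in treated wild-type hearts, with a log2 difference of 1.87 ± 0.13 (95% interval 1.60 to 2.15; limma adjusted p = 6.9e-07), and 24 of 8543 genes had a larger one; groups did not overlap for Bdh1, as for 23.4% of tested genes in that direction. Acat1 was lower, at 0.703 of the untreated knockout level, with a log2 difference of -0.51 ± 0.09 (95% interval -0.71 to -0.31; limma adjusted p = 0.0012), and its groups did not overlap, as for 24.1% of tested genes in that direction. Oxct1 (-0.12 ± 0.09, 95% interval -0.32 to 0.08, limma adjusted p = 0.35) and Slc16a1 (-0.02 ± 0.09, 95% interval -0.20 to 0.17, limma adjusted p = 0.9) did not pass, and their libraries overlapped. The sign of the Slc16a1 value turned with several scalings. In this comparison 33.2% of tested genes passed, 16.4% higher and 16.9% lower, and 1.30% were called at least 2-fold higher. All-gene counts were 1399 higher and 1440 lower, or 1806 and 1113 when scaled to genes outside the mitochondrial genome. The 3 comparisons share their groups in pairs, so their values for a gene are not independent of each other.

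Ratios of 2 genes within a library do not depend on a scaling factor for the library, though quantile and cyclic loess normalization would change them. They are given from the deposited values as a description. The ratio of Bdh1 to Oxct1 was 0.0360, 0.0431 and 0.0544 in untreated knockout libraries, 0.172, 0.189 and 0.170 in treated wild-type and 0.199, 0.230 and 0.189 in treated knockout libraries. The dehydrogenase transcript was thus higher relative to the transferase transcript in all 6 treated libraries than in any untreated one. The ratio of Oxct1 to Acat1 was 3.12 ± 0.0682 in treated wild-type hearts, above 2.38 ± 0.0555 in untreated and 2.52 ± 0.0372 in treated knockout hearts, with no overlap between the wild-type and either knockout group. The ratio of Oxct1 to Slc16a1 moved least, at 5.38 ± 0.0720, 5.78 ± 0.274 and 5.26 ± 0.106 in treated wild-type, untreated knockout and treated knockout hearts.

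**Figure D3:**
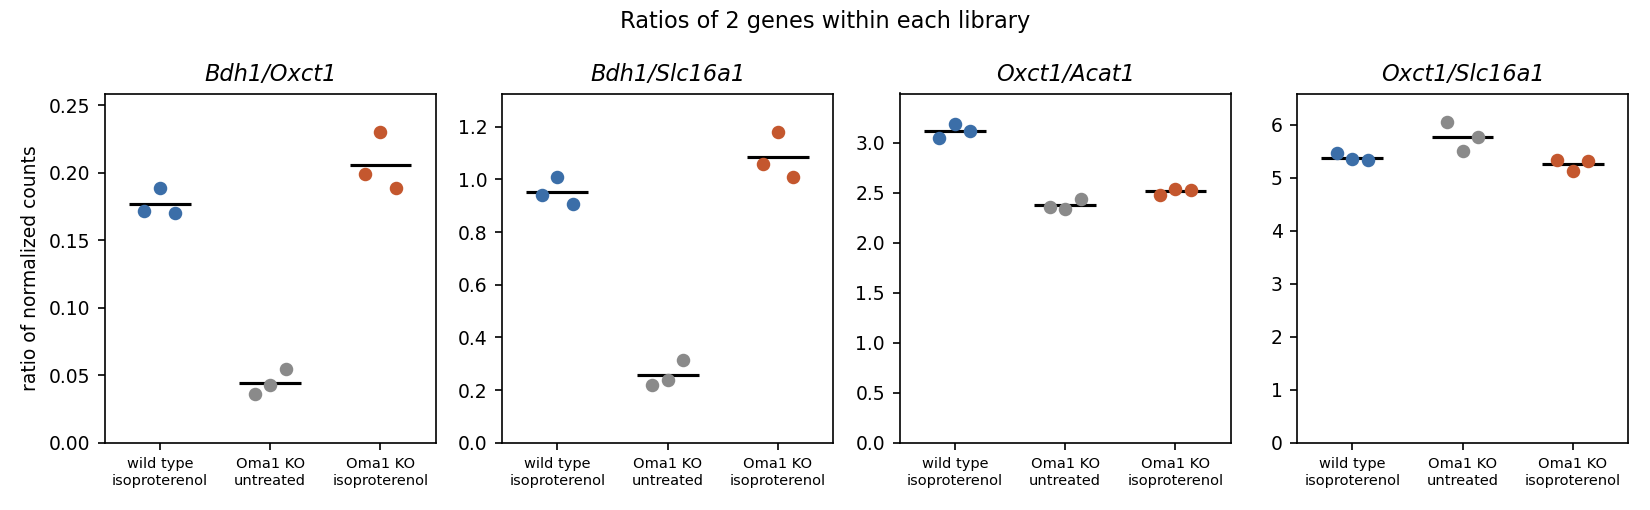
Ratio of the normalized counts of 2 genes within each library (points) and group mean (bars), for 4 gene pairs; vertical axes start at 0. Ratios with Bdh1 on top are lowest in the untreated libraries, the ratio of Oxct1 to Acat1 is highest in treated wild-type hearts, and the ratio of Oxct1 to Slc16a1 stays between 5.14 and 6.06.

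The genes most like each member over the 9 libraries were found by the root mean square difference of profiles, each centred on its mean and divided by its SD, and are named as a description. Nearest to Oxct1 were Nomo1 (0.0976), Gfm1 (0.101), Mmgt1 (0.120) and Ccng1 (0.124). The 4 nearest to Slc16a1 included Fyttd1 (0.141), Opa1, the inner membrane fusion GTPase that OMA1 cleaves (0.153), and Srl (0.161). Opa1 had mean normalized counts of 198, 197 and 126 in treated wild-type, untreated knockout and treated knockout hearts. The 4 nearest to Acat1 included Ndrg2 (0.0696), Hadhb (0.0699) and Hadha (0.0969), of which Hadha and Hadhb encode the subunits of the mitochondrial trifunctional protein of fatty acid oxidation. Nearest to Bdh1 were Cpm (0.148), Gnb4 (0.152), Calm2 (0.171) and Lphn2 (0.179). Among the members, Oxct1 and Slc16a1 were closest, at 0.199, and Bdh1 and Acat1 were farthest apart, at 1.81.

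Other genes around ketone use came from 6 pathway lists with 60 genes, members included, of which 49 were in the table and 38 were tested. Between the treated groups, 17 of the 38 passed (44.7%, against 27.8% of all tested genes), 2 higher and 15 lower in the knockout, with a median log2 difference of -0.22 against -0.014 for all tested genes. Without treated knockout replicate 2, 11 passed, 2 higher and 9 lower. The calls over all tested genes fell as well in that setting, from 2379 to 1336, so the 27.8% is not its background. Between the knockout groups, 31 passed (81.6%, against 51.4%), 3 higher and 28 lower with treatment, with a median of -0.55 against -0.0213. Between treated wild-type and untreated knockout hearts, 19 passed (50%, against 33.2%), 2 higher and 17 lower, with a median of -0.24 against 0.0054.

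The lists' calls were repeated under 11 alternatives: each library left out, the mitochondrial genome left out of the scaling, and the length and GC correction. In the list of ketone body synthesis and use, 5 of 7 genes in the table were tested. Between the treated groups 0 were higher and 1, Oxct1, was lower, beside 12.0% and 15.9% of all tested genes. Between the knockout groups 1, Bdh1, was higher and 4 were lower, Oxct1 and Acat1 among them, beside 23.9% and 27.4%. The 4 became 3 with the mitochondrial genome left out of the scaling or without treated knockout replicate 2 or any 1 untreated library. Of these 4, 1 passed the filter on low values only through the untreated libraries. Acat2, the cytosolic thiolase, and Aacs, which activates acetoacetate in the cytosol, were below the filter at 2.29 to 8.55.

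In monocarboxylate transport, 6 of 15 genes in the table were tested. Between the treated groups 1 was higher and 2 were lower, beside 12.0% and 15.9% of all tested genes. Between the knockout groups also 1 was higher and 2 were lower, beside 23.9% and 27.4%, so these few calls do not set the list apart. The 1 became 0 without untreated knockout replicate 1 or treated knockout replicate 2. The 2 became 3, with Mpc1 added, without treated wild-type replicate 3 or with the length and GC correction. Slc16a10, an aromatic amino acid carrier, had means of 13.3 ± 1.97 in treated knockout and 17.8 ± 2.46 in treated wild-type hearts and passed narrowly (limma adjusted p = 0.048). It passed in 3 of 11 alternatives, and was lost with the mitochondrial genome left out of the scaling, with the length and GC correction, and without replicate 1 or 2 of either treated group or replicate 1 or 3 of the untreated knockout (limma adjusted p from 0.052 to 0.19). Bsg, the chaperone that brings SLC16A1 to the membrane, was at 626 ± 34.0, 692 ± 31.0 and 655 ± 26.3 in treated wild-type, untreated knockout and treated knockout hearts and passed in none of the 3 comparisons. Mpc2, a subunit of the mitochondrial pyruvate carrier, was higher in treated knockout than in treated wild-type hearts (179 ± 3.41 and 141 ± 19.4, limma adjusted p = 0.014), while its partner Mpc1 differed by -0.07 (limma adjusted p = 0.49). Slc16a3, the lactate exporter of glycolytic cells, lay below the filter at 1.24 to 4.79.

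In lactate and acetyl-CoA entry, all 7 genes were tested. The counts below stand beside 12.0% of all tested genes higher and 15.9% lower between the treated groups. In treated hearts 0 were higher in the knockout and 1 was lower, Cs, the citrate synthase, at 757 ± 69.5 in the knockout and 996 ± 84.2 in the wild type (limma adjusted p = 0.0063). Without treated wild-type replicate 3, 3 were lower, with Acss1 and Crat added; without treated knockout replicate 1 or 3, 2 were lower. With the mitochondrial genome left out of the scaling, 1, Ldhb, was higher. Cs passed in all 11 of these alternatives. Between the knockout groups 1 was higher and 5 were lower, beside 23.9% and 27.4% of all tested genes. Ldha, the muscle-type lactate dehydrogenase subunit, rose with treatment from 497 ± 14.4 to 635 ± 6.22 (limma adjusted p = 0.00079), and Ldhb, the heart-type subunit, went from 1127 ± 37.1 to 976 ± 87.8 without passing (limma adjusted p = 0.08; 0.022 without treated wild-type replicate 3, where it passed, and 0.028 with the length and GC correction). Ldhd, the D-lactate dehydrogenase, fell from 56.8 ± 2.0 to 23.9 ± 4.33, and Crat, the carnitine acetyltransferase that buffers acetyl-CoA, fell from 493 ± 18.1 to 253 ± 17.4 (limma adjusted p = 2.8e-06 and 3e-06).

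**Figure D4:**
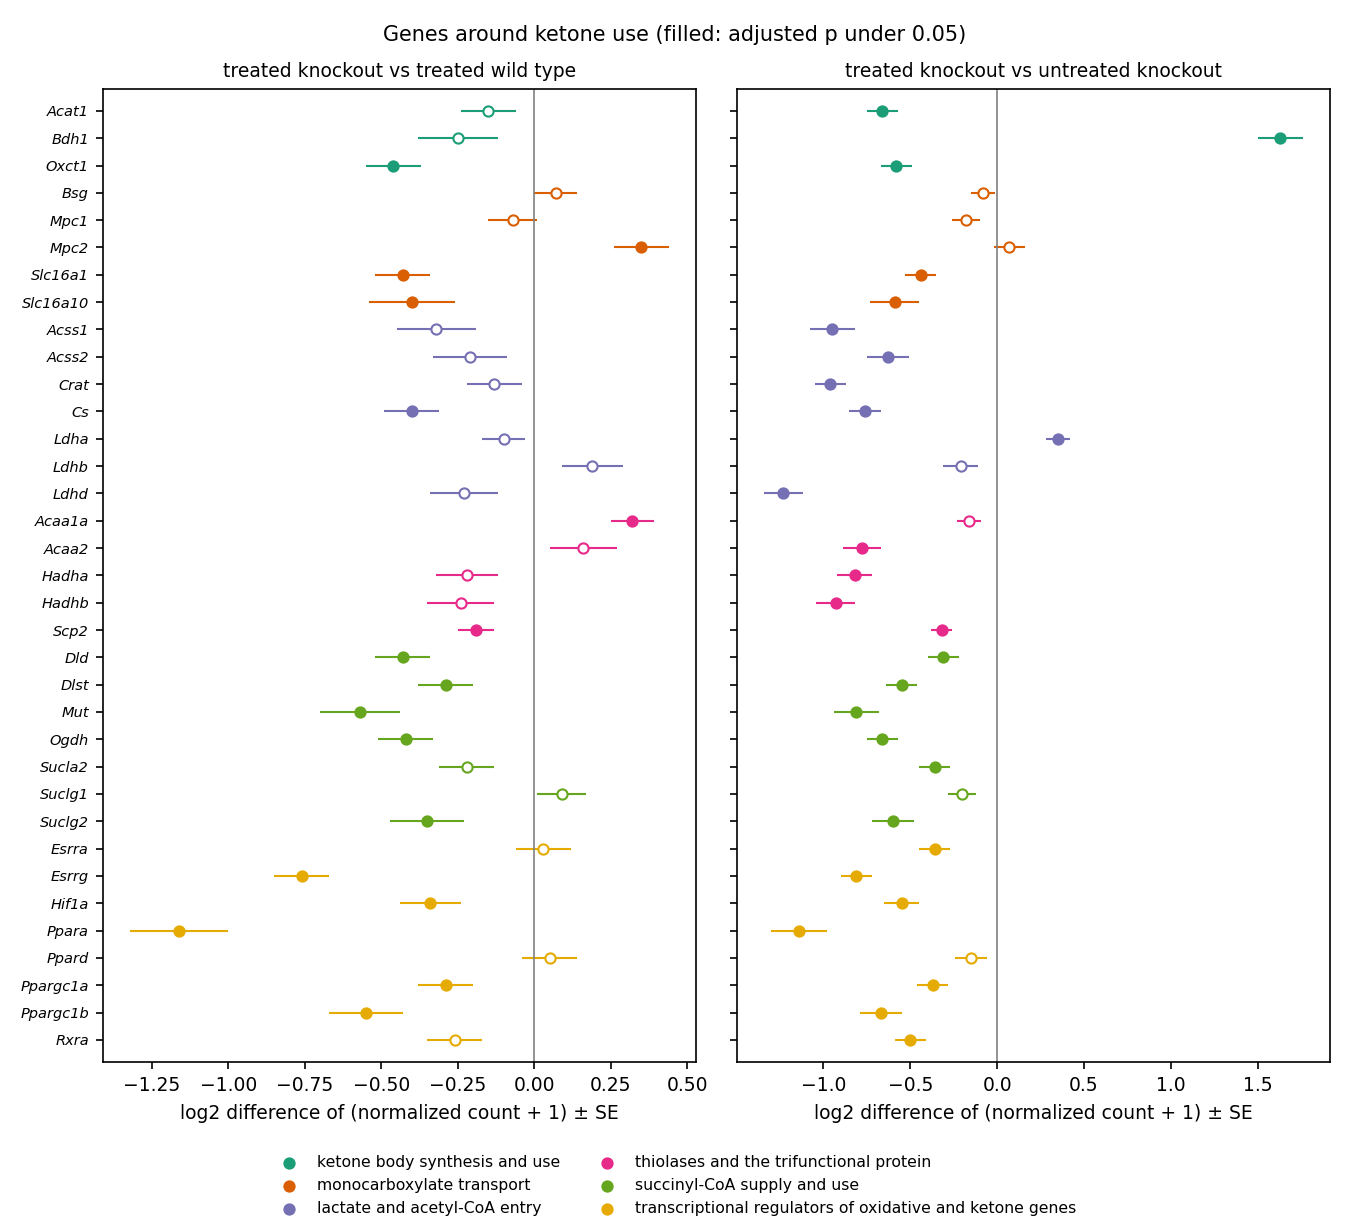
Log2 difference of (normalized count + 1) ± SE for 35 of the 38 tested genes of the 6 lists (colours), between the treated groups (left) and between the knockout groups (right); filled points passed limma's adjusted threshold of 0.05. Most filled points lie left of 0, and Bdh1, at 1.63, lies farthest right.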

How the data were processed

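RNA from 9 heart libraries, 3 per group, was sequenced after TRIzol and column extraction and TruSeq library preparation, per the labels' protocols. The tools cutadapt, RSEM 1.17 and limma and the build GRCm38 were used, per the submitters' processing notes, which give no role for each. The deposited signal is the authors' normalized expected count per gene, on a scale near that of CPM. Low values were whole multiples of 1 read in 100% of cases within a tolerance of 0.02 reads, which gave each library's reads. Reads of a gene and of an antisense partner cannot be told apart, because strand use in counting is not given in the sources used here. Oxct1 overlaps BC037032 and Gm15632, and Bdh1 overlaps Gm15743. BC037032 stood at 2.08 to 5.07 in all libraries. The table had 232 rows with an ID but no symbol.

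A pseudocount of 1 was added before taking log2 of the deposited values. The 8543 genes that reached 10 in 3 or more of the 9 libraries were fitted with limma 3.58.1 (R 4.3.3), using 1 mean per group, a shared spread and limma's trend option. Two-sided p-values received the Benjamini-Hochberg adjustment across these 8543 genes, and 0.05 was the threshold. Ratios and differences on this scale slightly understate changes of low genes. The text names the 4 members, the genes of 6 pathway lists that passed in a comparison with treated knockout hearts, some list genes that did not pass or were too low to test, chosen after their values were seen, and the 4 genes nearest to each member, leaving out predicted models; some of these genes are not reported here. The members and lists were chosen with earlier results of these data known. Lengths and positions came from GENCODE M21, where 13385 of 13539 IDs were found. Alternatives covered the pseudocount, filter, scaling, limma settings, replicate block, a correction for transcript length and GC content with splines of 5 degrees of freedom (8494 genes), each library left out, and, on the recovered reads, DESeq2 1.42.0, edgeR 4.0.16 and voom. The pipeline was tested on simulated data. Replicates differed by more than sampling noise (chi-square per degree of freedom 2.71 to 15.0). Pairs with treated wild-type replicate 3 gave 15.0 and 11.0, and pairs with treated knockout replicate 2 gave 14.6 and 13.1. All other pairs within a group lay between 2.71 and 4.55. Nothing in the labels says that libraries are from separate animals, so p-values measure the spread between these libraries, which may be technical.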

Additional observations from a re-analysis of the deposited data

How the results depend on the processing

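Over 27 alternatives each, the calls of Oxct1 and Slc16a1 between the treated groups kept their direction and passed (log2 differences -0.54 to -0.32 and -0.5 to -0.33, adjusted p from 1.5e-05 to 0.019 and from 0.00012 to 0.03). So did the calls of all 4 genes between the knockout groups (Oxct1 -0.64 to -0.37, Bdh1 1.48 to 1.77, Acat1 -0.72 to -0.46, Slc16a1 -0.5 to -0.29) and those of Bdh1 (1.72 to 2.02) and Acat1 (-0.58 to -0.41) between treated wild-type and untreated knockout hearts. Acat1 between the treated groups passed in none (-0.24 to -0.05). With 1 library left out, Bdh1 between the treated groups ranged from -0.36 to -0.14 and passed without wild-type replicate 3 (-0.36, adjusted p = 0.04). The Slc16a1 difference between treated wild-type and untreated knockout hearts changed sign with quantile normalization (0.02), cyclic loess (0.05) and scaling to genes outside the mitochondrial genome (0.04), and ranged from -0.07 to 0.06 with 1 library left out, positive without treated wild-type replicate 3 (0.06) or untreated knockout replicate 2 (0.02). That of Oxct1 was 0.01 with cyclic loess. None of these passed, and the cause was not tested. Genes called over the whole table numbered 1236, 1765 and 1152 with a minimum of 50, where fewer genes were tested. With 1 library left out they ranged from 1336 to 2382, from 3574 to 4605 and from 1957 to 3087. The 1336, with 534 higher and 802 lower, came without treated knockout replicate 2, where 11 genes of the wider lists passed. Whether same-numbered libraries were handled together is not given in the sources used here. Deviations from group means correlated at -0.14 to 0.183 over 9 same-numbered pairs and at -0.251 to 0.227 over differently numbered pairs. The deviations of a group's 3 libraries cancel out, so these values cannot decide whether the numbers mark a pairing. With the replicate block, 2258, 4316 and 2755 genes were called and no call of the 4 genes changed. With the block and the length and GC correction, 1539 passed between the treated groups (684 higher, 855 lower), with Oxct1 at -0.40 (adjusted p = 0.017) and Slc16a1 at -0.33 (adjusted p = 0.03). Adjusted p-values here are from limma, edgeR or DESeq2. The members had 364 or more reads in each library.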

Other observations

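The other 3 lists hold enzymes that share substrates with ketone use and the regulators of such genes. Succinyl-CoA is the coenzyme A donor that OXCT1 uses, and of the 7 tested genes for its supply and use, 5 were lower and 0 higher in treated knockout than in treated wild-type hearts (median log2 difference -0.35), beside 15.9% of all tested genes lower. Over the 11 alternatives 3 to 6 were lower, with 3 after the length and GC correction and without replicate 1 or 2 of the treated wild type or replicate 2 of the treated knockout (median -0.24 without the last). Ogdh, the 2-oxoglutarate dehydrogenase that makes it in the citric acid cycle, was at 1597 ± 133 in the wild type and 1194 ± 135 in the knockout (limma adjusted p = 0.0057). Mut, the methylmalonyl-CoA mutase that makes it from propionate carbon, was at 96.1 ± 11.9 and 64.9 ± 11.6 (limma adjusted p = 0.0062). Suclg2, the GTP-forming succinyl-CoA synthetase subunit, was at 149.9 ± 11.6 and 119 ± 23.7 and passed narrowly (limma adjusted p = 0.042), as it did in 3 of the 11 alternatives. Sucla2, the ATP-forming one, differed by -0.22 ± 0.09 and did not pass (limma adjusted p = 0.1; 0.014 without treated wild-type replicate 3, where it passed). Between the knockout groups 6 of the 7 were lower with treatment, with a median of -0.55, beside 27.4% of all tested genes.

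Of 8 regulators, 5 were lower and 0 higher in treated knockout than in treated wild-type hearts (median -0.32), beside 15.9% of all tested genes lower, and 7 were lower with treatment in the knockout, beside 27.4%. Between the treated groups 3 to 6 were lower over the 11 alternatives, with 3 (median -0.25) without treated knockout replicate 2. Ppara, the nuclear receptor of fatty acid and ketone genes, had a mean of 22.9 ± 0.473 in the treated wild type, 22.6 ± 1.62 in the untreated knockout and 9.99 ± 3.03 in the treated knockout. Its treated knockout values of 11.1, 6.57 and 12.3 lay near the filter of 10, with 63 to 152 reads. Between the treated groups Ppara passed (limma adjusted p = 6e-04). Esrrg, an oestrogen-related receptor of oxidative metabolism, stood at 45.5 ± 4.92, 47.0 ± 3.27 and 26.4 ± 2.08. Ppard differed by 0.05 between the treated groups and by -0.15 between the knockout groups and passed in neither (limma adjusted p = 0.69 and 0.17).

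Of 5 thiolases and trifunctional protein genes, 1 was higher between the treated groups, beside 12.0% of all tested genes, and 1, Scp2, was lower, beside 15.9%. Scp2 passed in 2 of the 11 alternatives, and the lower count was 0 in most of them and 3 without treated wild-type replicate 3, where Hadha and Hadhb were added. With treatment in the knockout 0 were higher and 4 lower (median -0.78), beside 27.4% lower. Hadhb, the thiolase subunit of the trifunctional protein, fell with treatment from 1852 ± 107 to 977 ± 135 (limma adjusted p = 1.9e-05) and Acaa2, the mitochondrial 3-ketoacyl-CoA thiolase, from 767 ± 35.5 to 447 ± 35.5 (limma adjusted p = 8.1e-05). The peroxisomal thiolase Acaa1a was higher in treated knockout than in treated wild-type hearts, at 61.9 ± 2.17 and 49.5 ± 1.73 (limma adjusted p = 0.0049). The atrial and endothelial markers given in the report moved in the same libraries, and their part in these values was not tested.

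With treatment in the knockout, 23.9% of all tested genes were higher and 27.4% lower. Beside this, fibroblast markers were higher for 4 of 6 genes, smooth muscle and pericyte markers for 5 of 6 and macrophage markers for 2 of 4 tested. Cardiomyocyte markers were lower for 3 of 7 and erythroid markers were called for 0 of 3. Between the treated groups the counts were 1 higher for fibroblast, 1 lower for smooth muscle and pericyte, 0 for macrophage and 0 for erythroid markers. For cardiomyocyte markers they were 2 higher and 1 lower. All of these stand beside 12.0% of all tested genes higher and 15.9% lower. Of the 5 skeletal muscle markers, 0 were found by symbol in the table.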
